A study of Homo sapiens with 47 samples.

Results

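The genes described here are 10 markers of myeloid cells and of leukocytes in general, read in single circulating tumor cells (CTCs). They are S100A8, S100A9, LCN2 and LYZ, which encode secreted or granule proteins, the adaptors TYROBP and FCER1G, the leukocyte membrane and actin genes PTPRC, CORO1A and LAPTM5, and CD74. They were taken by name from 25739 gene rows, of which 9 of the 10 could be matched, and S100A8 has no row and was not analysed here. CTCs were LM2 cells, a metastatic derivative of the human triple-negative breast cancer (TNBC) line MDA-MB-231, labelled with GFP and grown as a tumor in the mammary fat pad of NSG mice. The mice were young adults when the tumor cells were injected, and the labels name no treatment. Blood was passed through a size-based microfluidic device, the captured cells were stained for CD45 and with a nuclear dye, and GFP-positive cells were picked 1 at a time for SMARTseq2. The comparison cells were single LM2 cells from tissue culture, prepared alongside. No sample is a leukocyte library.

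Values were analyzed for 37 CTCs, with 2 from mouse 5541, 4 from mouse 5542, 10 from mouse 5545, 17 from mouse 5546 and 4 from mouse 5549, and for 6 cultured cells, which are 1 culture without a replicate. Another 4 CTCs of the labels have no values here. Reads on genes ranged from 469614 to 2041333 per CTC and from 776949 to 1186197 per cultured cell. Levels are given as normalized counts, that is as reads scaled by a factor for the size of each library, and a gene was detected when it had at least 1 read. All 10 LM2 markers on the list used here (VIM, CD44, KRT8, KRT18, EGFR, LGALS1, CAV1, AXL, ANXA2 and S100A6) were looked for in each CTC, and 9 or 10 of them were found. Whether leukocytes also express these markers was not tested. The libraries 5546-s4, 5546-s9 and 5549-6 stood apart by holding the highest values of several leukocyte genes, and results are also given without them. Each library came from 1 picked cell, no doublet caller was run, and 0 of the 903 pairs of libraries held identical reads.

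NSG mice lack mature T, B and NK cells but keep neutrophils, monocytes and macrophages, and their red cells and platelets are their own. S100A9 pairs with S100A8 to form calprotectin, a major cytosolic protein complex of neutrophils, and binds the receptors TLR4 and AGER. TYROBP (DAP12) and the Fc receptor gamma chain FCER1G carry ITAM motifs, which recruit the kinase SYK when a partner receptor is engaged. PTPRC encodes CD45, the pan-leukocyte phosphatase and the protein used here for negative selection. CD74 is the invariant chain that guides MHC class II molecules through the cell and also occurs in epithelial tumors. The reads were aligned to the human genome alone, and the sources used here state no step that separates mouse from human reads, so that human and mouse transcripts of close sequence cannot be told apart here and the species behind a read was not tested.

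S100A9 and TYROBP, which lie on chromosomes 1 and 19, were highest in the same CTC of 3 mice, as was FCER1G. For S100A9 and TYROBP the 250 bases before the RefSeq start (GRCh38.p14) are shown on the strand of the gene. The letters GAGGAA or their reverse complement TTCCTC are in capitals. The 250 bases before FCER1G are not shown and held 0 matches to these letters. GAGGAA is part of the motif bound by the myeloid factor PU.1, the product of SPI1, whose reads are described below.
S100A9, chr1:153357604-153357853, plus strand: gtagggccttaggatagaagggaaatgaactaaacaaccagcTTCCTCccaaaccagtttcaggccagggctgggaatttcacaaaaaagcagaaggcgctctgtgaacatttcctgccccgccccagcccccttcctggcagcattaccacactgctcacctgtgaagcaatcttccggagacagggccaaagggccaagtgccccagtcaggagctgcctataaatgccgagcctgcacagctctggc
TYROBP, chr19:35908296-35908545, minus strand: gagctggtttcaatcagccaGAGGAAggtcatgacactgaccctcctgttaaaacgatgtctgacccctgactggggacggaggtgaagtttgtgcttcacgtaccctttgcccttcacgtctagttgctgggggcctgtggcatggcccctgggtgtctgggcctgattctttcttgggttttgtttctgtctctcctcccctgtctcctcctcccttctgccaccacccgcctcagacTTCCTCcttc
The match in S100A9 begins 208 bases before the start, and those in TYROBP 230 and 10 bases before it. Of the 9 members with a RefSeq promoter, 4 held these letters in the 250 bases, namely S100A8, S100A9, TYROBP and CORO1A, while 23.6% of all 35116 promoters did. That share is per promoter, while a member was counted if any of its promoters matched. S100A8, which has no values here, has 3 promoters and each other member 1. A match is a run of letters and not a binding site.

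S100A9 (ENSG00000163220, chr1:153357854-153361023, plus strand) was the member most often seen in CTCs without being seen in culture. It had reads in 30 of 37 CTCs (81.1%, exact 95% binomial interval 64.8 to 92.0%, which covers counting error only) and in 0 of 6 cultured cells. In mouse 5546, the values of the 17 CTCs ran from 14.0 over a median of 97.3 to 335, so that every CTC of this mouse had S100A9. In mouse 5542 the 4 CTCs had 85.0, 8.65, 2.05 and 0.461. In mouse 5549 they had 568, 72.4, 6.70 and 0.561. Of the 10 CTCs of mouse 5545, 5 had none and the others had 91.6, 12.7, 2.68, 2.36 and 0.489, and both CTCs of mouse 5541 had none. The ranges of the 4 mice with S100A9 overlapped, and that of mouse 5546 was the only one that did not reach down to values under 1. The mean of the 5 mouse means was 68.4 ± 78.4 (SD, n = 5).

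**Figure D1:**
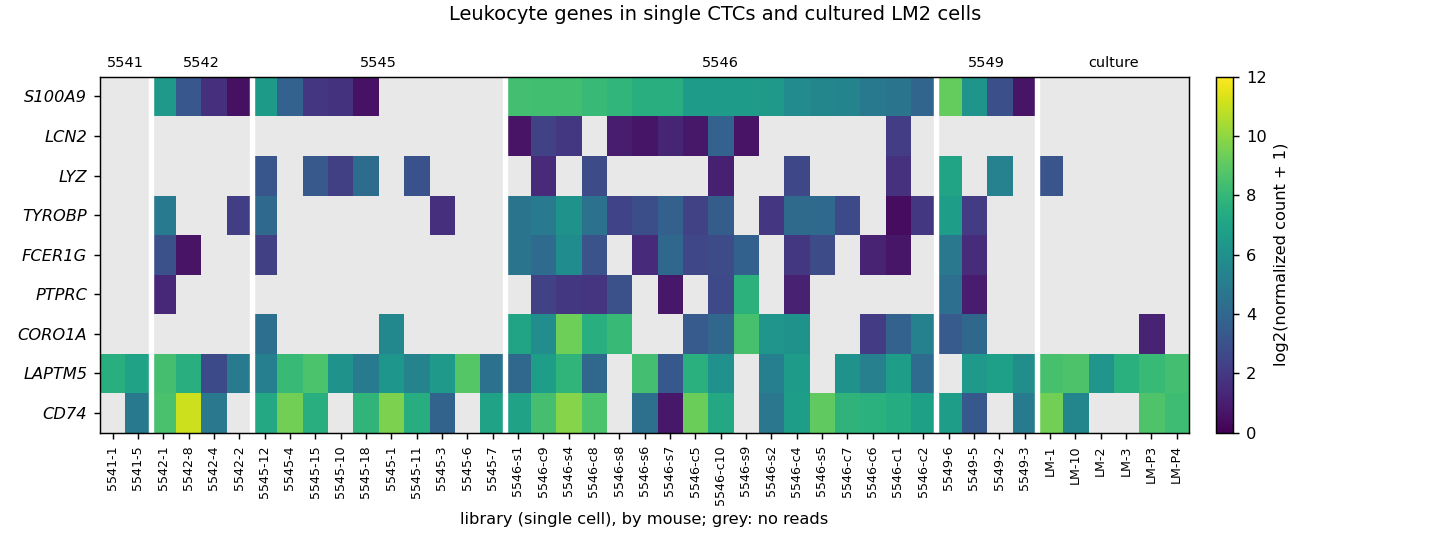
Level of the 9 members with a row (rows) in each of the 43 cells (columns, ordered by mouse and within a mouse by S100A9), as log2(normalized count + 1), with grey for no reads. LAPTM5 and CD74 are filled in most CTCs and cultured cells, whereas S100A9 is filled in 30 CTCs and in 0 of 6 cultured cells.

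The other secreted proteins were rarer. LCN2 (ENSG00000148346, chr9:128149071-128153453), the siderophore-binding lipocalin of neutrophil granules, was found in 10 CTCs, all of mouse 5546, and in no cultured cell. Its highest value was 12.6 in the library 5546-c10, and 5 of the 10 CTCs had a single read of it. LYZ (ENSG00000090382, chr12:69348381-69354234), lysozyme, was found in 12 CTCs of 3 mice and in 1 cultured cell with 4 reads. Its highest value, 128 in 5549-6, held 31.4% of all LYZ reads in CTCs, and without that CTC the mean fell from 6.23 to 2.84. In mouse 5546 it had reads in 5 of the 9 libraries whose names carry the letter c and in 0 of the 8 with the letter s, letters that the sources used here do not explain. LYZ shares exon sequence with the antisense lncRNA ENSG00000257764, and counting did not use strand, so that reads of the 2 genes cannot be told apart.

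TYROBP (ENSG00000011600, chr19:35904401-35908295, minus strand) was detected in 21 of 37 CTCs (56.8%, 39.5 to 72.9%) and in 0 of 6 cultured cells. Its values in mouse 5546 ran from 0 over a median of 6.39 to 67.9, with reads in 15 of 17 CTCs. In mouse 5542 the 4 CTCs had 28.7, 3.69, 0 and 0, and in mouse 5549 they had 102, 3.25, 0 and 0. Mouse 5545 had it in 2 of 10 CTCs, at 16.4 and 2.20, and mouse 5541 in neither CTC. A few CTCs therefore carried most of the TYROBP of a mouse, and every mouse also held CTCs without it. The mean of the mouse means was 9.88 ± 10.5 (SD, n = 5).

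FCER1G (ENSG00000158869, chr1:161215234-161220699, plus strand) followed TYROBP at about the same breadth, with reads in 18 of 37 CTCs (48.6%, 31.9 to 65.6%) and in no cultured cell. The highest values were 55.5 in 5546-s4 and 26.6 in 5549-6. Mouse 5546 had it in 13 of 17 CTCs with a median of 4.90, mice 5542 and 5549 in 2 of 4 CTCs each, and mouse 5545 in 1 of 10 CTCs, at 3.78. The mean of the mouse means, 3.68 ± 4.14 (SD, n = 5), was lower than that of TYROBP by less than the SD of TYROBP between mice. The 2 adaptor genes are of similar exonic length, and per kilobase their means over CTCs were 11.4 for TYROBP and 5.43 for FCER1G.

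PTPRC (ENSG00000081237, chr1:198638457-198757476, plus strand), the CD45 gene, had reads in 11 of 37 CTCs (29.7%, 15.9 to 47.0%) and in no cultured cell. A single CTC, 5546-s9, had a value of 205 and held 88.2% of all PTPRC reads in CTCs. The next values were 19.98 in 5549-6 and 6.99 in 5546-s8, and the mean over CTCs fell from 6.79 to 1.27 without 5546-s9. Picking left out cells positive for the CD45 protein, while the 11 CTCs were picked with reads of its gene. The value of 5546-s9 came with 0 reads of TYROBP, LAPTM5 and CD74.

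CORO1A (ENSG00000102879, chr16:30182827-30189076, plus strand), the actin-binding coronin of leukocytes, was found in 17 of 37 CTCs (45.9%, 29.5 to 63.1%) and in 1 cultured cell with 1 read. It was an abundant member where it was present, with 16 CTCs at 8 or more, and its highest values were 644 in 5546-s4, 367 in 5546-s9 and 280 in 5546-s8, which together held 59.8% of its reads. Mouse 5546 had it in 13 of 17 CTCs with a mean of 111, against means of 6.73 in mouse 5545 and 6.21 in mouse 5549. None of the CTCs of mice 5541 and 5542 had a read of it. CORO1A shares exon sequence with the antisense lncRNA CORO1A-AS1, from which its reads cannot be told apart.

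LAPTM5 and CD74 behaved differently from the other 7 members, since the cultured cells held them too. LAPTM5 (ENSG00000162511, chr1:30732469-30757774, minus strand), a lysosomal membrane protein of hematopoietic cells, was detected in 33 of 37 CTCs and in all 6 cultured cells. Its values in the cultured cells were 75.3 at the lowest, 312 at the median and 400 at the highest, and in CTCs 0, 67.4 and 458. The mouse means lay between 63.4 and 154, all below the culture mean of 277, an order that turned under edgeR's scaling as given below, and the ranges of single cells overlapped. It shares exon sequence with the antisense lncRNA ENSG00000287510. CD74 (ENSG00000019582, chr5:150401637-150412969, minus strand) was detected in 30 CTCs and in 4 of 6 cultured cells, with 2204 as the highest value, in 5542-8. Its mouse means ran from 13.9 in mouse 5541 to 651 in mouse 5542, against a culture mean of 242. Without 5542-8 the mean of mouse 5542 was 134, and all 5 mouse means were then below the culture mean.

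**Figure D2:**
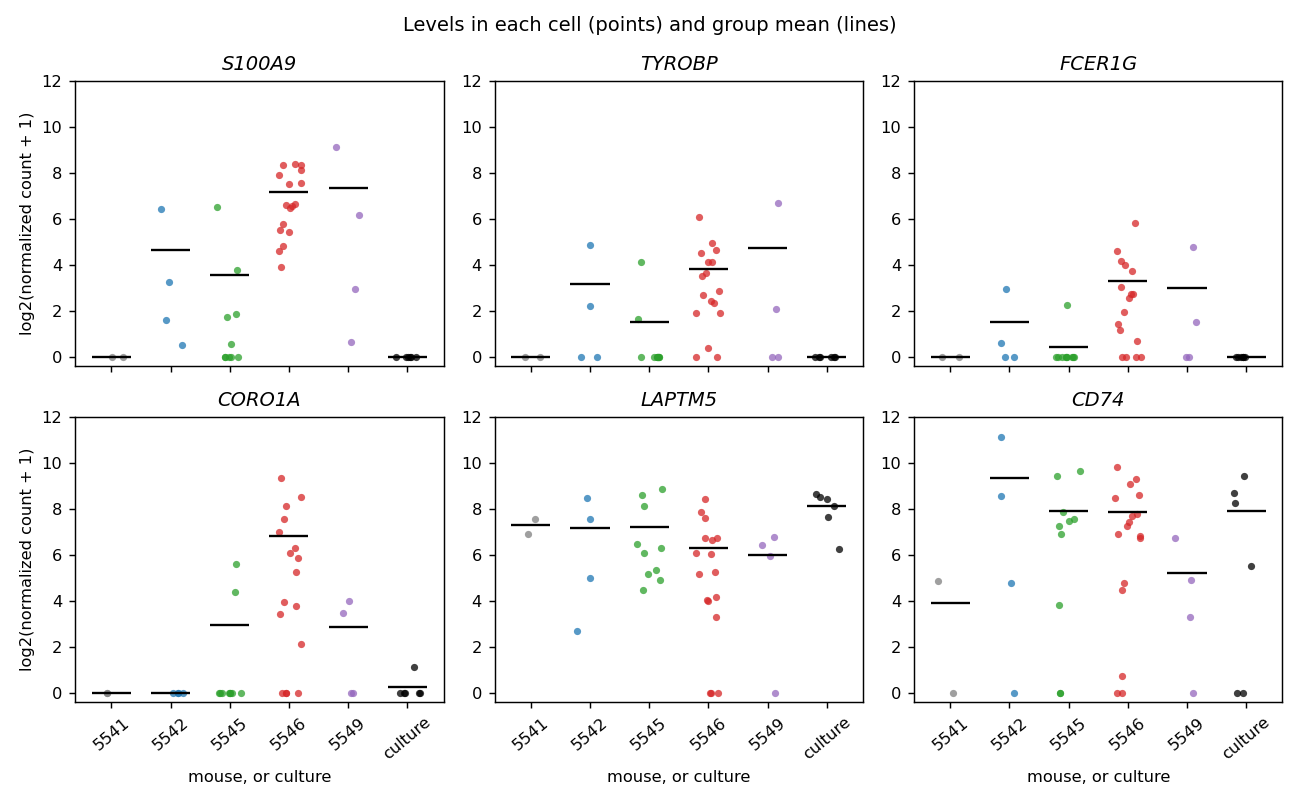
Level of 6 members in each cell (points), as log2(normalized count + 1), for the 5 mice and the culture, with the mean of each group as a line at log2(mean + 1). S100A9, TYROBP and FCER1G lie at 0 in all 6 cultured cells and in mouse 5541, whereas LAPTM5 was detected in all 6 cultured cells and CD74 in 4 of them.

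Levels of different genes were ordered after division by exonic length. Per kilobase, the mean over CTCs was highest for S100A9 at 157, followed by CD74 at 54.4 and LAPTM5 at 33.1. TYROBP at 11.4 and CORO1A at 11.2 came next, then FCER1G at 5.43 and LYZ at 3.61, while LCN2 at 0.466 and PTPRC at 0.440 were lowest. In culture, LAPTM5 at 85.8 and CD74 at 53.5 per kilobase were the only members above 1. The SD between mouse means was as large as the mean or larger for S100A9, TYROBP, FCER1G, LCN2, PTPRC, CORO1A, CD74 and LYZ, so that most neighbours in this order were not separated beyond the spread between mice. The exception was LAPTM5 over TYROBP, whose means of mouse means per kilobase were 36.5 ± 13.3 and 10.9 ± 11.6 (SD, n = 5).

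The comparison of CTCs with cultured cells asks which of these genes had more reads in CTC libraries than in libraries of the cultured line. With the reads of the 6 cultured cells pooled, 0 reads among 5522296 allow up to 3 reads, or 0.543 RPM, where RPM scales reads to the total of a library. Against this limit S100A9, at 68.1 ± 75.6 RPM (SD over 5 mice), was at least 125-fold higher in CTCs. TYROBP, at 8.76 ± 6.92 RPM, was at least 16.1-fold higher. PTPRC, at 4.65 ± 8.47 RPM, was at least 8.56-fold higher, and FCER1G, at 3.62 ± 4.28 RPM, at least 6.67-fold. The limit for PTPRC rested on 5546-s9 and was 1.95-fold without it. LCN2, at 0.492 RPM, was under the limit, and no fold is given. CORO1A, at 28.6 ± 54.3 RPM and at 125 RPM in mouse 5546, was higher by a ratio of 158 (28.4 to 6241, the interval from its 1 read in culture). LYZ, at 7.78 ± 13.1 RPM, was higher by 10.7 (4.19 to 39.4), which was 6.495 without 5549-6. All 4 culture reads of LYZ lay in LM-1. The limits and intervals cover counting error in the culture only, and not the spread between mice. Mouse 5541 had no read of any of these 7 members.

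A gene met a rule of size when the CTC mean of every mouse differed from the culture mean at least 4-fold in 1 direction, after 1 was added to both, with the larger mean at 8 or more. By this rule 0 of 9 members were higher and 0 were lower, where 0.0155% of all 25739 genes were higher and 1.89% were lower. Without the 2 CTCs of mouse 5541, S100A9 met the rule as higher, as 0.0311% of all genes then did. Of the 9 members, 5 (S100A9, TYROBP, FCER1G, LCN2 and PTPRC) were detected in at least 10 CTCs and in no cultured cell, and 1.76% of all genes were. The members were chosen with earlier results of these data known.

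On reads summed per mouse, edgeR's quasi-likelihood test with Benjamini-Hochberg adjustment called 0 of the 9 members, and 0% of the 13813 genes tested in either direction, with an adjusted p of 1.00 for each member. At an unadjusted p under 0.05 there were 241 genes, with S100A9 and TYROBP among them. The single culture sum was taken to vary as the mice do. DESeq2 called 14 of 11740 genes and none of the 8 members with an adjusted p, which for S100A9 was 0.150. With no filter on low counts, edgeR called S100A9, with an adjusted p of 0.00263, among 27 of 25739 genes. The scale moved the center of the genes compared. Over the 10550 genes detected in at least 10 CTCs, the median log2 ratio of CTCs over culture was -0.91 on the deposited size factors and -0.23 in RPM. It was 0.31 in edgeR, which also fits other averages, over 13813 genes. Over all 25739 genes, most of them low, it was -0.03 on the deposited size factors. LAPTM5 turned from -1.23 over -0.47 to 0.11 on these 3 scales, and CD74 from -0.05 over 0.79 to 1.23. Relative to the median of the 10550 or 13813 genes of each scale, LAPTM5 was at -0.31, -0.24 and -0.20, and CD74 at 0.87, 1.02 and 0.92. S100A9 was at 7.03, 6.65 and 11.95 above that median and TYROBP at 4.36, 3.85 and 9.02, fitted values that depend on the count added to a culture at 0.

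Several of these genes were found in the same CTCs. The median CTC had 5 of the 9 members, and 33 of 37 CTCs had 3 or more. The median was 2 in culture, where 2 of 6 cells had 3 or more. Without LAPTM5 and CD74, the members that the line also held, the median was 3 of 7 in CTCs, and 20 CTCs had 3 or more. By mouse, the median of the 9 was 1.5 in mouse 5541, 3.5 in mouse 5542, 3 in mouse 5545, 7 in mouse 5546 and 5 in mouse 5549. Only 5546-c9 and 5546-c10 had all 9. Leaving out mouse 5546, the median over the other 20 CTCs was 3, and 16 of them had 3 or more members.

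**Figure D3:**
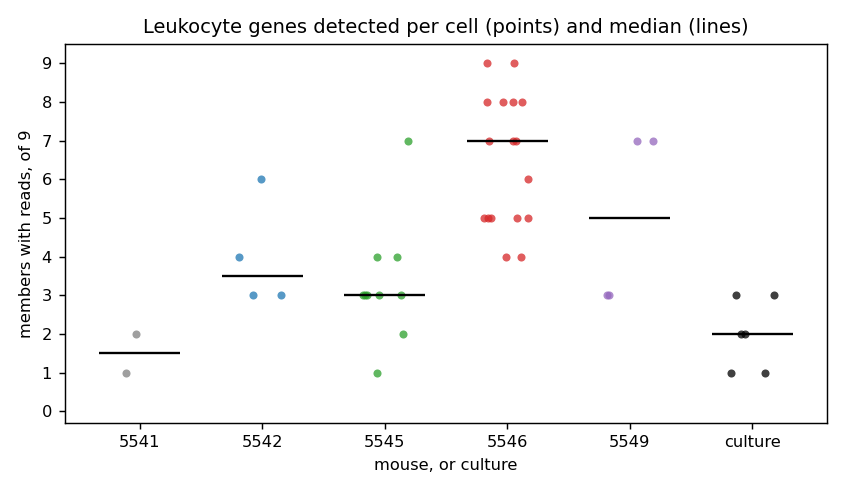
Number of the 9 members with at least 1 read in each cell (points) and the median of each group (lines), for the 5 mice and the culture. The median is 7 in mouse 5546, 1.5 in mouse 5541 and 2 in the culture.

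S100A9, TYROBP and FCER1G were detected together in 15 CTCs, 11 of them from mouse 5546, while 6 CTCs had none of the 3 and 7 had S100A9 alone. All 18 CTCs with FCER1G had S100A9, as did 20 of the 21 with TYROBP, all 10 with LCN2, all 11 with PTPRC, 16 of the 17 with CORO1A and 11 of the 12 with LYZ. These overlaps stand against S100A9 in 30 of all 37 CTCs (81.1%). It was in all 17 CTCs of mouse 5546, the only mouse with LCN2. Levels of S100A9, TYROBP and FCER1G also moved together. Over the 37 CTCs, Pearson's r of log2(value + 1) was 0.79 for S100A9 and TYROBP, 0.78 for S100A9 and FCER1G, and 0.80 for TYROBP and FCER1G. Without mouse 5546, in the remaining 20 CTCs, the same coefficients were 0.81, 0.89 and 0.94. CTCs of the same mouse share their animal and all CTCs carry the same batch label, so that these values describe the 37 cells and carry no p. Against S100A9, LAPTM5 had r of -0.29 and LYZ 0.08, and LYZ had 0.42 without mouse 5546. CORO1A had r of 0.62 with S100A9, 0.46 with TYROBP and 0.53 with FCER1G.

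**Figure D4:**
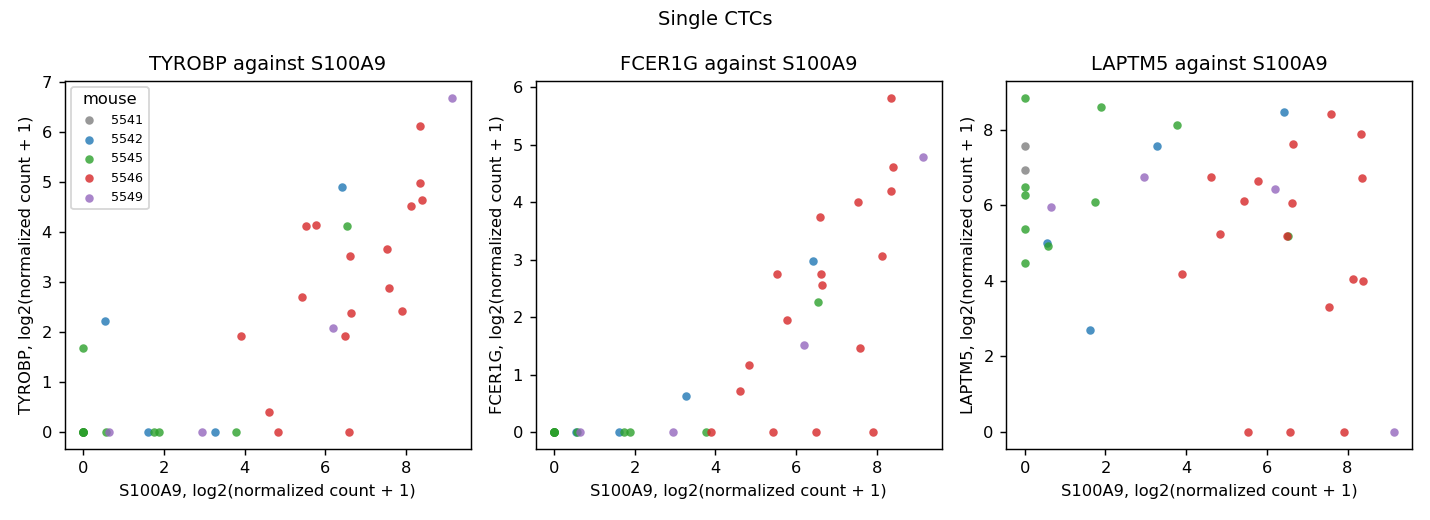
TYROBP, FCER1G and LAPTM5 against S100A9 in the 37 CTCs, colored by mouse, all as log2(normalized count + 1). TYROBP and FCER1G are high in CTCs with high S100A9 (r of 0.79 and 0.78), and LAPTM5 is not (r of -0.29).

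In each of the 3 smaller mice with these genes, 1 CTC stood above the others for all of them. In mouse 5542 this was 5542-1, which held 88.9% of the S100A9 reads of that mouse, 87.1% of its TYROBP reads and 92.9% of its FCER1G reads. In mouse 5545 it was 5545-12, with 94.0% of S100A9, 95.1% of TYROBP and all 9 reads of FCER1G. In mouse 5549 it was 5549-6, with 67.1% of S100A9, 89.7% of TYROBP and 80.0% of FCER1G. The levels in 5549-6 were above those of every CTC of mouse 5546 for S100A9 and TYROBP and of all but 5546-s4 for FCER1G, while 5542-1 and 5545-12 fell inside that mouse's range. All 3 CTCs had the 10 LM2 markers, and the summed level of these ranked 17 of 37 in 5542-1, 31 in 5545-12 and 35 in 5549-6, counted from the highest. In 5549-6, LGALS1 (19.98) and ANXA2 (556) were the lowest of all CTCs. In mouse 5546 the genes were spread over more CTCs, and the top CTC held 16.8% of S100A9, 21.98% of TYROBP and 25.8% of FCER1G.

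Reads of other myeloid genes were also found, and 24 of 37 CTCs had a read of at least 1 neutrophil gene and 30 of at least 1 monocyte or macrophage gene. Of 13 neutrophil genes with a row, 12 had no read in culture, and 2 were found in 10 or more CTCs, namely LTF, lactoferrin, in 14 and CSF3R, the G-CSF receptor, in 10. Over all genes, 41.0% were found in 10 or more CTCs and 37.7% in no cultured cell, and the counts of the lists below stand against these shares. The granule proteases MMP8 and MMP9 were seen in 9 CTCs each, with the highest values, 283 and 215, in 5546-s4. Among 11 monocyte and macrophage genes, the LPS co-receptor CD14 was found in 11 CTCs and at 416 in 5546-s4, while CD68 was found in 21 CTCs and CTSS in 16, and all 3 had reads in culture. SPI1, the gene of PU.1, was found in 10 CTCs, all of which also had S100A9 and TYROBP, and in no cultured cell. Both S100A9 and TYROBP were found in 20 of all 37 CTCs. The mean of SPI1 was 61.1 in mouse 5546 and at most 1.51 in the other mice. In mouse 5546, S100A9 was in 17 and TYROBP in 15 of 17 CTCs. The value of SPI1 was 769 in 5546-s4 and at most 90.9 elsewhere. Neither the neutrophil nor the monocyte list had a gene that met the rule of size, and their median log2 ratios of CTCs over culture, with 1 added to both means, were 0.97 and 0.01, where that of all genes was -0.03. In the 7 CTCs without S100A9, 1 of the 13 neutrophil genes was found, FPR1 in 5545-1 at 30.1, which was its highest value in any CTC. Of the 11 monocyte and macrophage genes, CD68 and CTSS were found there, in 6 of the 7 CTCs.

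The partners of the adaptors were rarer than the adaptors themselves. Of 13 genes for ITAM kinases and Fc or TREM receptors with a row, 1 was found in 10 or more CTCs, the kinase gene LYN, in 16 CTCs and 4 cultured cells. BTK was found in 5546-s4 alone, at 100, PLCG2 in 5 CTCs and TREM1 in 3. Among the 7 receptor and signalling genes for S100A8 and S100A9, BSG was found in all 37 CTCs and in all cultured cells, MYD88 in 27 CTCs and TLR4 in 9 CTCs and 4 cultured cells. The MHC class II genes that CD74 serves were seen in culture as well as in CTCs, with HLA-DRA in 12 CTCs and 3 cultured cells, HLA-DMA in 11 and 3, and HLA-DRB1 in 8 and 3. HLA-DRA was highest in 5546-s4, at 235.

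Of 15 general leukocyte genes with a row, 6 had no read in culture, SPI1 among them, where 37.7% of all genes had none. Of the 15, 8 were found in 10 or more CTCs, where 41.0% of all genes were. The 3 of highest mean were also genes of the cultured line. ARHGDIB was found in 36 CTCs and RAC2 and SRGN in 35 each, and all 3 in the 6 cultured cells, with means in culture of 737, 433 and 397 against 432, 209 and 138 in CTCs. The beta-2 integrin gene ITGB2 met the rule of size as lower in CTCs, with means of 1.77 in CTCs and 48.9 in culture. Of 8 T, B and NK cell genes with a row, 0 were found in 10 or more CTCs, and the summed level of the list was at most 28.6 in a CTC and 24.1 in a cultured cell. Of 9 platelet genes, 1 was found in 10 or more CTCs, the integrin gene ITGB3, in 14, and the summed level was at most 229, in 5542-8.

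HBB, the beta-globin gene of red cells, was found in 35 of 37 CTCs and in 0 of 6 cultured cells, and 2 erythroid genes, HBB and HBD, met the rule of size as higher. Of the 8 erythroid genes with a row, 4 were found in 10 or more CTCs and none in culture, and the summed level ran from 0 over a median of 1290 to 15571 in CTCs, the last in 5549-6. All 30 CTCs with S100A9 had HBB, with a median of 1241, and the 7 CTCs without S100A9 had a median HBB of 1.81, though 1 of them, 5545-11, had 2176. Over the 37 CTCs, r of S100A9 and HBB was 0.65, and it was 0.47 without mouse 5546 and 0.52 within it. It was 0.49 for TYROBP and 0.51 for FCER1G with HBB, but 0.25 for LCN2, 0.19 for LYZ, 0.09 for CD74 and -0.39 for LAPTM5. The number of members per CTC had r of 0.57 with HBB, which was 0.48 without mouse 5546 and 0.03 within it. With genes detected it was 0.44, and 0.20 without that mouse, and with reads 0.07. The part of red cell RNA or other free RNA of the blood in the member values was not tested.

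**Figure D5:**
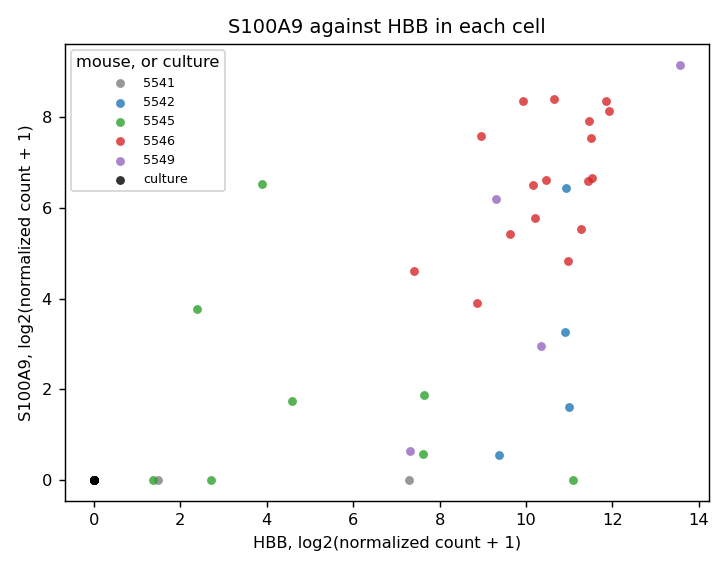
S100A9 against the beta-globin gene HBB in the 43 cells, both as log2(normalized count + 1), colored by mouse or culture. The 6 cultured cells lie at 0 for both, all 30 CTCs with S100A9 have HBB, and 5545-11 has HBB at 2176 without S100A9.

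The CTCs 5546-s4, 5546-s9 and 5549-6 held the highest values of several lists at once. In 5546-s4 the highest CTC value was reached by 21 of the 57 listed genes with reads there, including FCER1G, CORO1A, SPI1, CD14, MMP8 and also VIM, and the summed LM2 markers were the highest of all CTCs, at 56305. In 5546-s9 it was reached by 7 of 32, including PTPRC and LYN, and in 5549-6 by 10 of 37, including S100A9, TYROBP, LYZ and HBB. The summed LM2 markers were the lowest of all CTCs in 5546-s9, at 12536, with the lowest VIM (2893) and AXL (4.85), and ranked 35 of 37 in 5549-6. Of the LM2 markers, VIM, LGALS1 and S100A6 were the highest of all CTCs in 5546-s4. The others ranked from 5 (KRT18) to 25 (ANXA2) of 37 CTCs there. The part of other cells in these libraries was not tested. Without these 3 CTCs, S100A9 was found in 27 of the other 34, TYROBP in 19, FCER1G in 15, PTPRC in 8 and CORO1A in 14. The coefficients for S100A9 with TYROBP and FCER1G were then 0.80 and 0.76.

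The genes whose levels ran most like those of the members were searched among 11499 genes detected in at least 8 CTCs. For S100A9 they were the processed pseudogenes IFITM9P (r of 0.91) and IFITM3P2 (0.91) and the acute-phase gene SAA1 (0.87). IFITM9P, in 23 CTCs and in no cultured cell, was also second for TYROBP (0.84) and for FCER1G (0.87). First for TYROBP was HPR (0.87), a haptoglobin-related gene with near-identical relatives, in 19 CTCs and in no cultured cell. PTPRC ran with the pseudogenes CFL1P2 (0.82), MKRN5P (0.82) and CFL1P3 (0.81). Over all 9 members, 11 of the 25 distinct nearest genes were pseudogenes, and for S100A9, TYROBP, FCER1G and PTPRC 8 of 10 were, a class that made up 9.95% of the genes compared. The nearest genes of LAPTM5 were the protein-coding genes BABAM1 (0.77), PTGES2 (0.76) and HRAS (0.73), all 3 with reads in all cultured cells, and those of CD74 were RTF2 (0.68), KLF10 (0.67) and SOD3 (0.67). For CORO1A the first was ALOX5AP (0.78), the arachidonate 5-lipoxygenase activating protein of myeloid cells, in 21 CTCs and 2 cultured cells. For LYZ the first was USP28 (0.77), and for LCN2 the lncRNA ENSG00000258168 (0.82).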

How the data were processed

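Single CTCs and cultured LM2 cells were profiled by SMARTseq2, without molecular identifiers. The deposited values are a signal, read counts per gene that the authors divided by DESeq2 size factors (version 1.42.1 in the submitters' processing notes), after alignment with STAR 2.7.10a to GRCh38 with GENCODE 38 and with unique mappers kept and strand ignored. Whole reads were recovered from 100% of values (tolerance 0.001). Gene places are from GENCODE 44. Cells were grouped by their labels, with the mouse as replicate. Reads summed per mouse and over the culture were tested with edgeR 4.0.16 (TMM, filterByExpr, glmQLFit) in R 4.3.3, with DESeq2 1.42.0 as an alternative, and tested on simulated data. Intervals cover counting error only. The members and lists were chosen with earlier results of these data known. Named genes are the members, up to 4 genes of highest CTC mean per list and those in small counts, and the 3 most correlated genes of each member. TREM1 and genes named for single libraries fall outside this rule and were chosen after their values were seen. Alternatives changed the fold, pseudocount, minimum, average, scaling, filter, depth, mice and cells.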

Additional observations from a re-analysis of the deposited data

Results flagged for a closer look

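In groups of 4 to 10 cells, and among the 5 mouse means, a value was marked when its gap to the nearest other value was unusually large for the range. Of 34 sets of values with a spread, 19 were marked, and in 5 of them every other value was 0. Chance marks about 1 in 20 sets of normally distributed values, and sparse counts are not such values. The single CTCs of mice 5541 and 5546, 2 and 17 in number, fell outside these group sizes and were not looked at.

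In mouse 5542, the library 5542-1 was marked for S100A9 (85.0), TYROBP (28.7), FCER1G (6.90) and PTPRC (1.59), and 5542-8 for CD74 (2204). In mouse 5545, the library 5545-12 was marked for S100A9 (91.6), TYROBP (16.4) and FCER1G (3.78), 5545-1 for CORO1A (47.5) and 5545-18 for LYZ (18.1). In mouse 5549, the library 5549-6 was marked for S100A9 (567.8), TYROBP (102), FCER1G (26.6) and PTPRC (19.98). Among cultured cells, LM-P3 was marked for CORO1A (1.19, 1 read) and LM-1 for LYZ (7.96, 4 reads). Among the mouse means, mouse 5546 was marked for LCN2 (1.62) and CORO1A (111), and mouse 5549 for LYZ (41.9).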

How the results depend on the processing

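No paired analysis was possible because the library numbers name single cells and the culture is 1 sample, so that no replicate block can be fitted. The number of members meeting the rule of size was 0 under every alternative but the removal of mouse 5541, and ranged from 0 to 1 over the removals of single mice and cultured cells. The number called by edgeR was 1 with no filter on low counts, namely S100A9, and 0 under the other alternatives, the removals of single mice and cells included, and the cause was not tested. The median number of members per CTC was 3 when a value of at least 8 was asked for and 3 without LAPTM5 and CD74, and over the removals of single mice it ranged from 3 to 5, with 3 without mouse 5546. CTCs with 3 or more members numbered 20 without LAPTM5 and CD74 and from 16 to 33 over the removals of single mice, where fewer CTCs were counted. Over all genes, edgeR called 0, or 27 with no filter and 1 without mouse 5545, and DESeq2 called 14, and the rule of size found 3 to 10 genes higher and 137 to 2298 lower, against 4 and 487. Thinned to 469614 reads, S100A9 was still found in 27 CTCs, TYROBP in 18 and FCER1G in 14, with all 3 at 0 of 6 cultured cells. At values of 8 or more, S100A9 was found in 23 CTCs, TYROBP in 11, FCER1G in 6, PTPRC in 2 and LCN2 in 1. The removal of 5546-s4, 5546-s9 and 5549-6, of LAPTM5 and CD74, for edgeR of the letter s libraries, and of single CTCs for folds and mouse means were chosen after seeing the data.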
